A study of Mus musculus with 6 samples.

Results

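The genes that mark cytotoxic lymphocytes were followed in microinjected dorsal root ganglia (DRGs) of male mice. They were the 10 rows with the symbols *Cd8a*, *Cd8b1*, *Gzma*, *Gzmb*, *Gzmk*, *Prf1*, *Nkg7*, *Klrd1*, *Ncr1*, and *Eomes*, of 48440 rows in all, and all 10 were found. Ganglia of 3 libraries had received AAV5-*Gfp*, an adeno-associated virus that expresses green fluorescent protein. Those of the other 3 had received the 2 viruses AAV5-*V1* and AAV5-*V2* together (labelled AAV5-NIS V1 and V2, here AAV5-*V1+V2*), which carry the variants of *NIS-lncRNA*, a long noncoding RNA that nerve injury induces in the DRG. All mice were labelled wild type. The paper that reported these data names CD1 mice for its microinjections of AAV5-*V1* or AAV5-*V2*, without reference to these libraries. The ganglia were the L3/4 DRGs of the injected side. The deposited text gives 5 weeks between microinjection and collection in one place and 4 weeks in another. The age of the mice, the promoter in the viruses, and the number of animals behind each library are not given in the sources used here, so p-values measure the spread between libraries, which may be partly technical. Each group received its own virus preparation, and the preparation and the transcripts cannot be told apart.

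Cytotoxic lymphocytes are CD8 T cells and natural killer (NK) cells. Both kill a target cell by releasing granules that hold perforin, which opens the target's membrane, and granzymes, proteases that then start cell death. A CD8 T cell recognizes a peptide on MHC class I through its T cell receptor with CD8 as co-receptor, whereas an NK cell weighs activating receptors such as NKp46 (*Ncr1*) against inhibitory ones that sense MHC class I. In a healthy DRG such cells are few beside neurons, satellite glia, Schwann cells, and macrophages.

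The sequences before the granule genes are shown because perforin and the granzymes act together. They are the 250 bases before the RefSeq start site (GRCm38.p6), 5′ to 3′ along the gene, and capitals mark 3 short motifs searched on both strands, GGTGTGA (T-box factors, the family of *Eomes*), TGTGGT (RUNX factors), and AGGAAG (ETS factors). The windows are chr13:113100982-113101231 (minus strand) for *Gzma*, chr13:113180966-113181215 (minus strand) for *Gzmk*, chr14:56262335-56262584 (minus strand) for *Gzmb*, and chr10:61297586-61297835 (plus strand) for *Prf1*.
Gzma: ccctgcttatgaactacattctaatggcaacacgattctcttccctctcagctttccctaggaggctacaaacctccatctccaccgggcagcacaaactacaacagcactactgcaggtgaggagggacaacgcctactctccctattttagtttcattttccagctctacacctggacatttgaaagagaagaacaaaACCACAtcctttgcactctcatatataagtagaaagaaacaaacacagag
Gzmk: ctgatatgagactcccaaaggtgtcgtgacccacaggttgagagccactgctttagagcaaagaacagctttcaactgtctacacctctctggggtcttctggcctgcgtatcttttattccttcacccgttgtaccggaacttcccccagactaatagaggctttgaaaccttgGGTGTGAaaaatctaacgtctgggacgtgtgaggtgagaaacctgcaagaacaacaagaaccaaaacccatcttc
Gzmb: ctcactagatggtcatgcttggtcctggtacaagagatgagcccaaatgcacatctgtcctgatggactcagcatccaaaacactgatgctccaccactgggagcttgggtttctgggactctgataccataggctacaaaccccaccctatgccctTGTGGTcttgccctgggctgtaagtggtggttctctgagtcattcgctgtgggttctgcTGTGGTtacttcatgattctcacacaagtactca
Prf1: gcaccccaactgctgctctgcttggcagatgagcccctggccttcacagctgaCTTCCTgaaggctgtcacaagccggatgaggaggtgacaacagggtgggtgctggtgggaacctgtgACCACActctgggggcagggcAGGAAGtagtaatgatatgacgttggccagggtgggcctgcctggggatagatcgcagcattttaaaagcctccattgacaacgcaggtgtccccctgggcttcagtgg
The RUNX letters begin 50 bases before the start in *Gzma*, 93 and 34 bases before it in *Gzmb*, and 130 bases before it in *Prf1*. *Gzmk* had the T-box letters instead, 75 bases before its start. *Prf1* alone of these 4 windows held the ETS letters, at 197 and 109 bases. Of the 8 genes with a RefSeq window, 5 held the RUNX letters (*Gzma*, *Gzmb*, *Prf1*, *Nkg7*, and *Ncr1*), against 14.2% of 27025 windows. The T-box letters were in *Gzmk* and *Nkg7* (3.31% of all windows), and the ETS letters in *Prf1* and *Nkg7* (29.2%). *Cd8a* and *Eomes* held none of the 3. A match describes letters and not a bound site.

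Libraries held between 32025612 and 34764282 counts. Levels are given as CPM, the counts of a gene relative to the library total after TMM scaling, and 1 CPM was worth 31.2 to 34.7 reads. Values of a group are listed in the order of its replicates 1, 2, and 3. All 10 genes were low. Their reads summed to 195, 76, and 76 with AAV5-*Gfp* and to 860, 382, and 412 with AAV5-*V1+V2*. Relative to the unscaled totals these sums were 5.95, 2.19, and 2.33 CPM with AAV5-*Gfp*, and the other group had 26.9, 11.8, and 12 CPM. The exact 95% binomial intervals reached no higher than 6.85 CPM in the first group and no lower than 10.7 CPM in the second, and they cover counting error only. AAV5-*V1+V2* replicate 1 was the highest of its group for 10 of the 10 genes, and AAV5-*Gfp* replicate 1 was the highest of its group for 7 of the 10. In bulk tissue, more cells of a type and more RNA per cell cannot be told apart.

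Of the 10 genes, 6 were higher in AAV5-*V1+V2* than in AAV5-*Gfp* with an adjusted p under 0.05 (edgeR, quasi-likelihood F test, p adjusted by Benjamini-Hochberg over 18593 genes), where 10.1% of all genes tested were higher. None of them was lower, against 5.27% of all genes tested. The 6 were *Cd8b1*, *Gzma*, *Prf1*, *Nkg7*, *Klrd1*, and *Ncr1*. *Cd8a*, *Eomes*, and *Gzmk* missed the threshold, and *Gzmb* had too few reads to be tested. The 10 genes, and the lists given further on, were chosen with earlier results of these data known. Counts of calls among them are therefore a description. Of the 9 genes tested, 6 entered only through their level in AAV5-*V1+V2*, and could hardly have been called lower. *Gzmk*, *Klrd1*, and *Ncr1* passed the filter in every AAV5-*Gfp* library as well. The absence of lower calls is thus informative for these 3 genes only. For 9 of the 10 genes (8 of the 9 tested), every AAV5-*V1+V2* library lay above every AAV5-*Gfp* library, as was the case for 23.4% of all genes tested. An exact two-sided permutation test over the libraries gave p = 0.1 for each of these 9, the smallest that 3 against 3 allow. When AAV5-*Gfp* replicate 2 or replicate 3 was left out, 0 of the 10 were called, in fits that called 12 and 15 genes of any kind. In these fits 8 of the 10 were higher with an unadjusted p under 0.05, as were 2916 of 18917 and 2932 of 18947 genes tested. Without AAV5-*Gfp* replicate 1, 3 were called (*Cd8a*, *Cd8b1*, and *Ncr1*), in a fit that called 257 genes higher (1.35%). Without AAV5-*V1+V2* replicate 1 or replicate 2, 4 were called (*Gzma*, *Prf1*, *Nkg7*, and *Klrd1*), where 9.85% and 5.4% of all genes tested were higher.

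**Figure D1:**
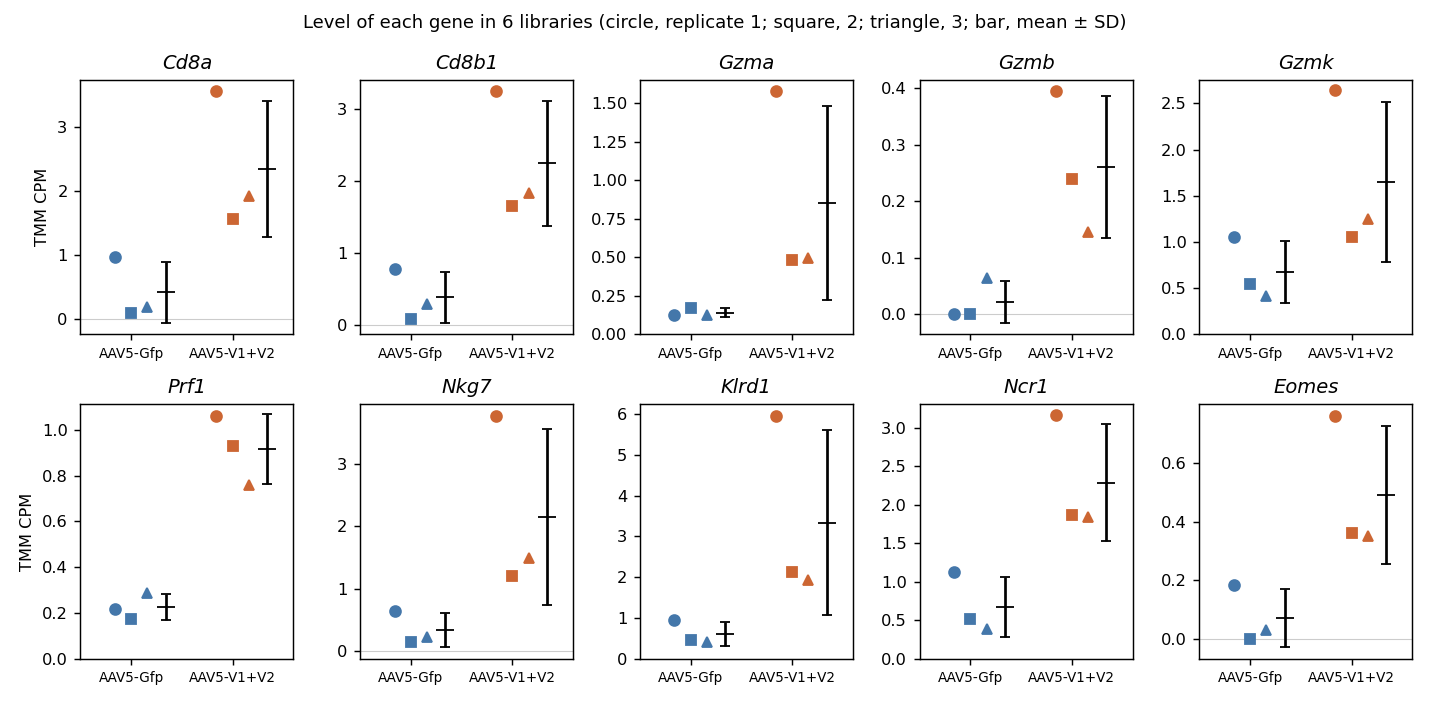
Level of each of the 10 genes in TMM-scaled CPM (vertical axis, its own scale in each panel) in 3 AAV5-*Gfp* libraries (blue) and 3 AAV5-*V1+V2* libraries (orange), with the mean and SD as black bars. AAV5-*V1+V2* replicate 1 (circle) is highest in all 10 panels, and *Gzmk* is the gene whose groups touch, at 1.05 CPM.

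*Cd8a* and *Cd8b1* encode the chains of CD8 and lie side by side on chromosome 6 of GRCm38, *Cd8b1* from 71322788 to 71337494 (6 exons) and *Cd8a* from 71373427 to 71379173 (5 exons), both on the plus strand and 35932 bases apart with no protein-coding gene between them. *Cd8a* had 31, 3, and 6 reads with AAV5-*Gfp*, whereas AAV5-*V1+V2* gave 117, 52, and 66 reads. The groups did not overlap, but AAV5-*Gfp* replicate 1 held most of the reads of its group. The mean level went from 0.413 ± 0.477 to 2.35 ± 1.06 CPM (SD, n = 3). Its log2 fold change of 2.50 had a standard error (SE) of 0.71 and an adjusted p of 0.0529 in edgeR's test. Without AAV5-*Gfp* replicate 1 the log2 fold change was 4.06 (adjusted p = 0.0448). It was 2.01 (adjusted p = 0.133) without AAV5-*Gfp* replicate 2 and 2.17 (0.176) without its replicate 3. Without AAV5-*V1+V2* replicate 1 it was 2.08 (0.0967).

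*Cd8b1*, whose chain pairs with CD8α on conventional CD8 T cells, had 25, 3, and 9 reads with AAV5-*Gfp* and 107, 55, and 63 reads with AAV5-*V1+V2*. As for *Cd8a*, replicate 1 was the highest library of each group. The adjusted p was 0.0515 without AAV5-*V1+V2* replicate 1 and 0.0615 without its replicate 2. Its log2 fold change was 2.55 (SE 0.60, adjusted p = 0.0343 in the same test), from 0.383 ± 0.354 to 2.25 ± 0.875 CPM (SD, n = 3), and 3.58 without AAV5-*Gfp* replicate 1. In the AAV5-*V1+V2* libraries there were 91.5, 106, and 95.5 *Cd8b1* reads for every 100 *Cd8a* reads. With AAV5-*Gfp* these were 80.6, 100, and 150, from 3 to 31 reads a gene. *Cd8a* alone, without *Cd8b1*, is also carried by some dendritic cells, and the dendritic cell genes are given further on.

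Perforin and the granzymes are the cargo of the granules. *Prf1* (chromosome 10, 61297833 to 61304680, plus strand) encodes perforin. It had 7, 6, and 9 reads with AAV5-*Gfp* and 35, 31, and 26 reads with AAV5-*V1+V2*. The lowest AAV5-*V1+V2* library was at 2.63 times the CPM of the highest AAV5-*Gfp* library. The level went from 0.226 ± 0.0582 to 0.918 ± 0.153 CPM (SD, n = 3). This was a log2 fold change of 2.01 with an SE of 0.30 (adjusted p = 0.0144 in edgeR's test). Its log2 fold change stayed between 1.85 and 2.21 under 14 alternatives, but the adjusted p was between 0.0514 and 0.0875 when a single AAV5-*Gfp* library was left out. It was 0.0334 without both replicate 1 libraries.

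*Gzma* and *Gzmk* encode granzymes that cut after basic residues, and are neighbours on the minus strand of chromosome 13, 70626 bases apart (*Gzma* from 113093825 to 113100981, *Gzmk* from 113171608 to 113225908). *Gzma* had 4, 6, and 4 reads with AAV5-*Gfp* and 52, 16, and 17 reads with AAV5-*V1+V2*. All AAV5-*V1+V2* libraries were above, and replicate 1 had more reads than both others together. The log2 fold change was 2.55 (SE 0.61, adjusted p = 0.0361), and 1.75 without AAV5-*V1+V2* replicate 1 (adjusted p = 0.0243). The adjusted p in edgeR's test was 0.104, 0.108, and 0.13 without AAV5-*Gfp* replicate 1, 2, or 3.

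*Gzmk* had 34, 19, and 13 reads with AAV5-*Gfp* and 87, 35, and 43 reads with AAV5-*V1+V2*. Here the groups met, since AAV5-*Gfp* replicate 1 and AAV5-*V1+V2* replicate 2 were both at 1.05 CPM. The log2 fold change was 1.29 (SE 0.47, adjusted p = 0.1), the smallest of the 9 tested, and it was between 0.78 and 1.76 when single libraries were left out. The two-sided exact permutation test gave p = 0.2. Whether *Gzmk* and *Gzma* changed by different amounts was not tested.

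*Gzmb*, the granzyme that cuts after aspartate and activates caspases, lies on chromosome 14 (56258838 to 56262260, minus strand). It had 0, 0, and 2 reads with AAV5-*Gfp* and 13, 8, and 5 reads with AAV5-*V1+V2*. Every AAV5-*Gfp* library was at or under the floor of 3 counts per library, against which *Gzmb* was at least 2.83-fold higher by the mean CPM. The lowest AAV5-*V1+V2* library was only 2 counts above that floor. Without the filter on low counts the adjusted p was 0.038. Its neighbours of the same cluster, *Gzmc*, *Gzmd*, *Gzme*, *Gzmf*, *Gzmg*, and *Gzmn*, which resemble *Gzmb* and could share reads with it, had 0 to 2 reads in every library.

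*Nkg7* encodes a membrane protein of cytotoxic granules found in both NK and CD8 T cells (chromosome 7, 43437073 to 43438249, plus strand). It had 21, 5, and 7 reads with AAV5-*Gfp* and 124, 40, and 51 reads with AAV5-*V1+V2*. The spread was wide in both groups, without overlap. The log2 fold change was 2.66 (SE 0.64, adjusted p = 0.0361 in edgeR's test), and 3.53 without AAV5-*Gfp* replicate 1 (adjusted p = 0.0532). Without AAV5-*V1+V2* replicate 1 it was 1.99 (adjusted p = 0.0456).

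*Klrd1* encodes CD94, which joins NKG2 chains into receptors for the MHC molecule Qa-1, and lies in the NK gene complex of chromosome 6 (129591782 to 129598775, plus strand). With 31, 16, and 13 reads in AAV5-*Gfp* and 196, 71, and 66 reads in AAV5-*V1+V2*, its groups did not overlap. AAV5-*V1+V2* replicate 1 stood at 5.96 CPM, against 2.13 and 1.92 CPM in the others. The log2 fold change was 2.44 (SE 0.55, adjusted p = 0.0301), and 1.73 without AAV5-*V1+V2* replicate 1.

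*Ncr1* encodes NKp46, an activating receptor that in mice is largely restricted to NK cells and some innate lymphoid cells (chromosome 7, 4337724 to 4345164, plus strand). It had 36, 18, and 12 reads with AAV5-*Gfp* and 104, 62, and 63 reads with AAV5-*V1+V2*. The level rose from 0.673 ± 0.389 to 2.29 ± 0.757 CPM (SD, n = 3), with a log2 fold change of 1.76 (SE 0.41, adjusted p = 0.0343). The adjusted p was 0.0537 without AAV5-*V1+V2* replicate 1 and 0.0635 without its replicate 2. For every 100 *Cd8a* reads there were 116, 600, and 200 *Ncr1* reads with AAV5-*Gfp*, and AAV5-*V1+V2* had 88.9, 119, and 95.5. The first group rests on 3 to 31 *Cd8a* reads, and AAV5-*Gfp* replicate 1 lay below AAV5-*V1+V2* replicate 2, so the groups overlapped.

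*Eomes* encodes a T-box transcription factor of NK cells and of memory CD8 T cells (chromosome 9, 118478212 to 118486132, plus strand). It had 6, 0, and 1 reads with AAV5-*Gfp* and 25, 12, and 12 reads with AAV5-*V1+V2*. The libraries of the groups were apart, and AAV5-*Gfp* replicate 1 held 6 of the 7 reads of its group. The log2 fold change was 2.71 (SE 0.80, adjusted p = 0.060), and it moved to 4.70 without AAV5-*Gfp* replicate 1 and to 2.11 without AAV5-*Gfp* replicate 2. A gene on the opposite strand overlaps *Eomes*, and since the use of strand in counting is not given, reads of the pair cannot be told apart. *Tbx21*, its relative that encodes T-bet, had 22, 9, and 4 reads with AAV5-*Gfp* and 165, 78, and 58 with AAV5-*V1+V2* (log2 fold change 3.07 with an SE of 0.61, adjusted p = 0.0234).

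**Figure D2:**
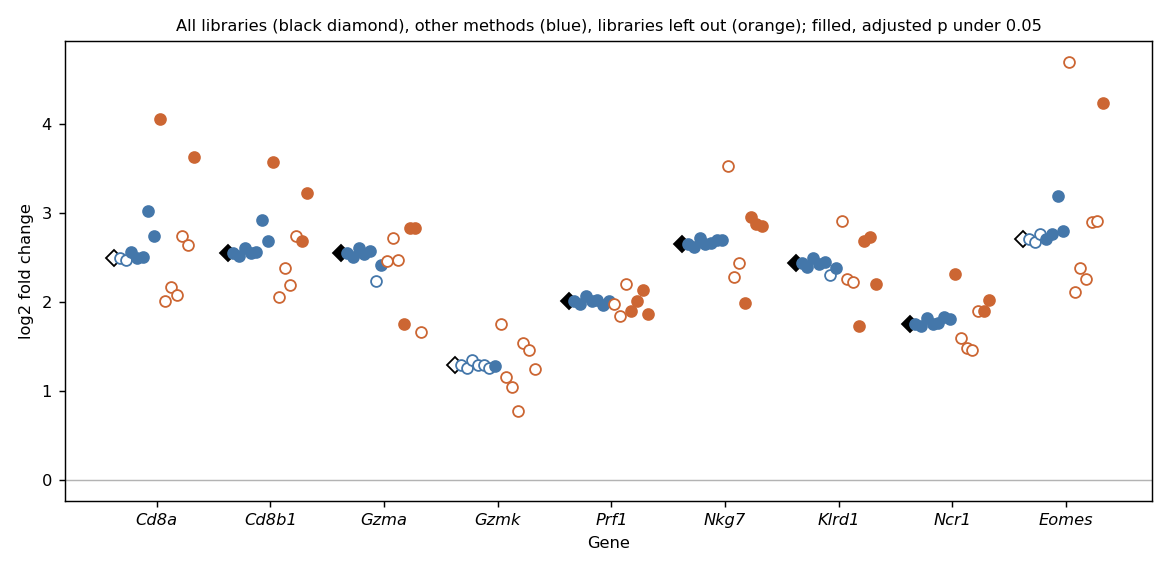
log2 fold change of AAV5-*V1+V2* over AAV5-*Gfp* (vertical axis) of the 9 genes tested (horizontal axis), with all libraries (diamond), with other methods (blue), and with libraries left out (orange), filled where the adjusted p was under 0.05. All points lie above 0, between 0.78 for *Gzmk* and 4.70 for *Eomes*, and the adjusted p of *Prf1* passes in all but the 3 fits in which a single AAV5-*Gfp* library was left out.

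Levels of different genes were compared per length, as CPM per kilobase of exon. With AAV5-*V1+V2* the order was *Klrd1* (2.61 ± 1.77, SD, n = 3), *Nkg7* (2.35), *Cd8b1* (1.52), *Ncr1* (1.48), *Gzmk* (1.19), *Gzma* (0.847), *Cd8a* (0.645), *Prf1* (0.355), *Gzmb* (0.181), and *Eomes* (0.118). The ranges of neighbours in this order overlapped except between *Cd8a* and *Prf1* and between *Prf1* and *Gzmb*. With AAV5-*Gfp* the order began with *Gzmk* (0.484 ± 0.242, SD, n = 3), *Klrd1* (0.478), *Ncr1* (0.437), and *Nkg7* (0.372), whose ranges all overlapped. Perforin (0.0875), *Eomes* (0.0175), and *Gzmb* (0.0149) were at the end, and the range of *Prf1* alone did not reach its next neighbour. *Gzmk* was thus at position 1 of 10 with AAV5-*Gfp* and at position 5 with AAV5-*V1+V2*, with overlapping neighbours in both.

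CD8 T cells carry the T cell receptor complex, so the cytotoxic genes were set beside it. Those tested include NK cell genes such as *Ncr1*, so the ratio to *Cd3* genes given below is not one within T cells alone. Of 14 genes of the T cell receptor complex and of helper T cells, 14 were higher, where 10.1% of all genes tested were. Some of them, such as *Cd3e*, passed the filter only through AAV5-*V1+V2*. The 14 had a median log2 fold change of 3.35, against -0.0003 for all genes tested. Their summed level was 10.7 to 23.4 CPM with AAV5-*Gfp* and 84.9 to 182 CPM with AAV5-*V1+V2*. *Cd3e*, a chain of the receptor complex, had 20, 9, and 6 reads with AAV5-*Gfp* and 287, 125, and 118 with AAV5-*V1+V2* (log2 fold change 3.88, SE 0.54). *Cd4*, the co-receptor of helper T cells, had 86, 37, and 40 reads and 815, 482, and 387 reads (log2 fold change 3.33, SE 0.42). *Cd28* (3.26) and *Cd5* (3.19) had the smallest adjusted p-values of that list, 0.00689 and 0.00910 in edgeR's test.

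Ratios within a library do not depend on its size. The cytotoxic genes tested had 70.9, 44.4, and 67.3 reads for every 100 reads of *Cd3d*, *Cd3e*, *Cd3g*, and *Cd247* with AAV5-*Gfp*, and AAV5-*V1+V2* had 37.9, 31.5, and 38.2. Every AAV5-*V1+V2* library was below every AAV5-*Gfp* library. The mean log2 ratio was -0.74 ± 0.37 (SD, n = 3) with AAV5-*Gfp* and -1.48 ± 0.16 (SD, n = 3) with AAV5-*V1+V2*, a difference of -0.74 (two-sided exact permutation p = 0.1, the smallest possible). Leaving out single libraries gave differences from -0.95 to -0.62. *Cd247* supplied most of the *Cd3* reads and is also expressed by NK cells.

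*Cd8a* against *Cd4* showed no such order. There were 36, 8.11, and 15 *Cd8a* reads for every 100 *Cd4* reads with AAV5-*Gfp*, and 14.4, 10.8, and 17.1 with AAV5-*V1+V2*. The AAV5-*V1+V2* values lay within the range of the AAV5-*Gfp* values, the difference of the mean log2 ratios was -0.34 (two-sided exact permutation p = 0.8), and without AAV5-*Gfp* replicate 1 its sign turned (0.18).

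**Figure D3:**
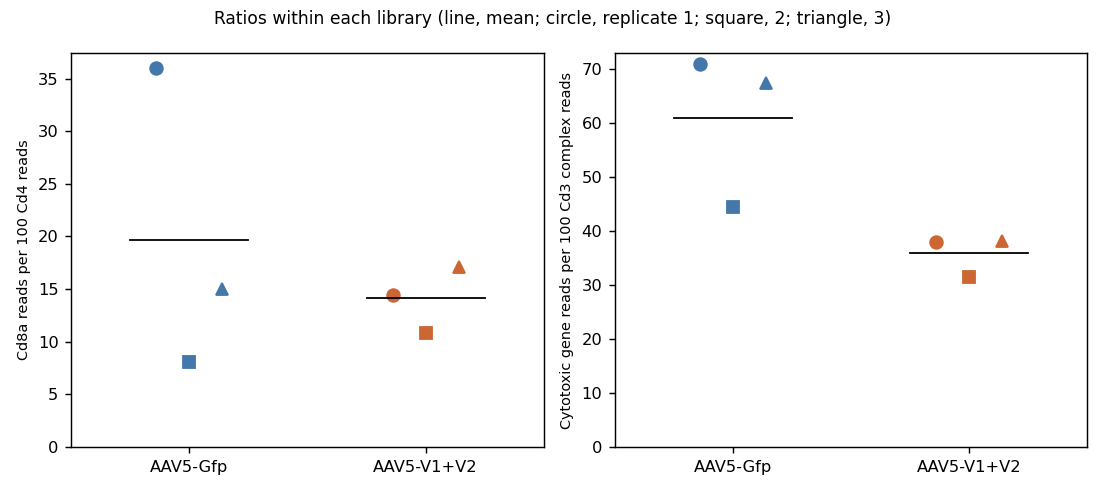
Reads of *Cd8a* per 100 reads of *Cd4* (left) and summed reads of the 9 tested cytotoxic genes per 100 reads of *Cd3d*, *Cd3e*, *Cd3g*, and *Cd247* (right) in each library, with the group mean as a line. On the left the groups overlap, and on the right the AAV5-*V1+V2* libraries (31.5 to 38.2) all lie below the AAV5-*Gfp* libraries (44.4 to 70.9).

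**Figure D4:**
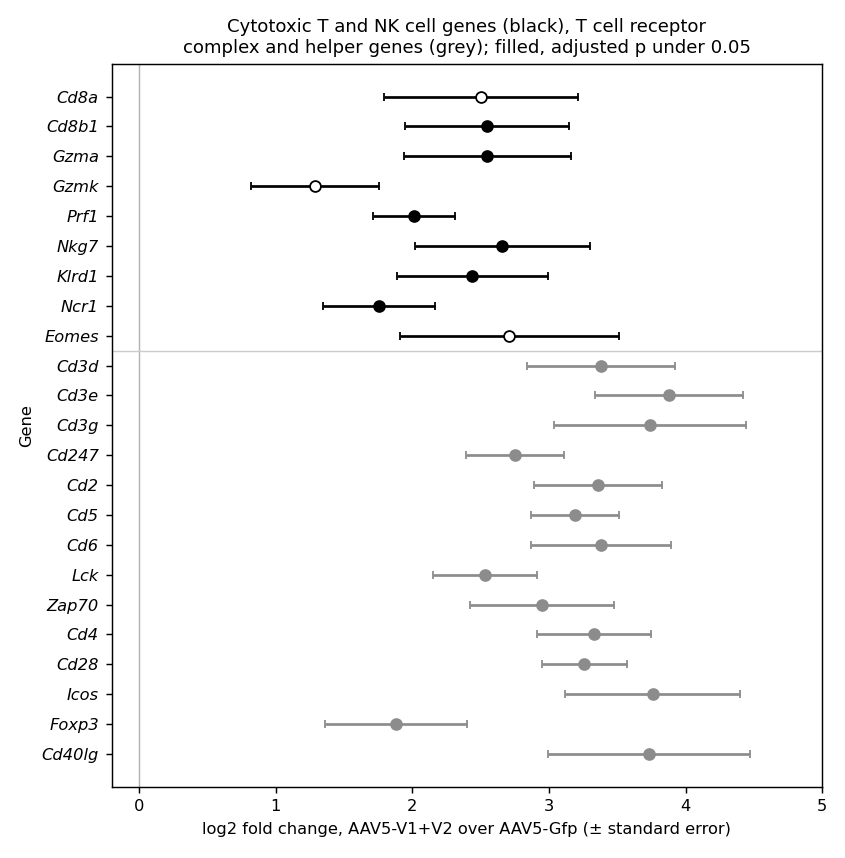
log2 fold change with its standard error (horizontal axis) of the 9 tested cytotoxic genes (black) and of 14 genes of the T cell receptor complex and helper T cells (grey), filled where the adjusted p was under 0.05. The cytotoxic genes run from 1.29 (*Gzmk*) to 2.71 (*Eomes*), and the other genes from 1.88 to 3.88 (*Cd3e*).

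The wider cytotoxic programme was read from 6 further lists, which were chosen with earlier results of these data known. Of their 69 genes tested, 46 were higher (where 10.1% of all genes were) and 0 were lower, and their log2 fold changes had a median of 1.81. Some, such as *Lta* and *Il21*, were under the filter's 0.306 CPM in every AAV5-*Gfp* library. They entered only through AAV5-*V1+V2*, so that such genes could hardly have been called lower. The 46 fell to 13, 0, and 0 when AAV5-*Gfp* replicate 1, 2, or 3 was left out. Of the granule genes, 6 of 8 were higher. *Srgn*, the proteoglycan that packs granules (log2 fold change 1.27, adjusted p = 0.0227), *Serpinb6b*, a serpin (1.10, 0.0230), and *Ctsc*, the protease that activates progranzymes (1.32, 0.0265), had the smallest adjusted p-values by edgeR's test. With AAV5-*Gfp* their mean levels were 11.1, 2.51, and 32.1 CPM, against 0.226 CPM for *Prf1*. Which cells their reads came from was not tested. *Gzmm*, named after its values were seen, was the other granzyme with enough reads to be tested, with 33, 62, and 38 reads and 52, 48, and 51 reads (log2 fold change 0.16, adjusted p = 0.666).

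Of 8 genes for the release of granules, 4 were higher. *Unc13d*, which primes granules for fusion, had the largest change (log2 fold change 1.67 with an SE of 0.30, adjusted p = 0.0189), and the SNARE genes *Stx11* (0.91) and *Vamp8* (0.65) had smaller ones. Named after their values were seen, *Rab27a* was at 19.9 ± 1.28 and 21 ± 1.04 CPM (SD, n = 3), and *Lyst* had a log2 fold change of 0.19, and neither passed the test. These genes are also used by other secretory cells.

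Of 8 death ligands and secreted effectors tested, 7 were higher. *Lta*, which encodes lymphotoxin alpha, went from 4, 3, and 1 reads to 32, 21, and 19 reads (log2 fold change 3.08). *Tnf* had a log2 fold change of 3.05 and *Tnfsf10*, which encodes the death ligand TRAIL, of 1.14. Which cells the reads of these ligands came from was not tested. *Ifng*, the interferon of activated T and NK cells and named after its values were seen, had 0, 0, and 3 reads with AAV5-*Gfp* and 25, 9, and 15 with AAV5-*V1+V2*. It was below the filter, and at least 5.32-fold higher against the floor of 3 counts.

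Of 20 other NK receptors and adaptors tested, 12 were higher. *Klri1*, an NK lectin receptor, went from 0.547 ± 0.200 to 3.36 ± 0.782 CPM (SD, n = 3), *Slamf7*, which plasma cells also carry, from 1.55 ± 0.673 to 16.5 ± 7.68, and *Cd226* from 4.97 ± 0.955 to 17.5 ± 5.69. Their adjusted p-values in edgeR's test were 0.0139, 0.0139, and 0.0144. *Klrb1c* (NK1.1) and *Klra8* had been listed as NK cell markers beside *Ncr1* and *Eomes*. *Klrb1c* had 13, 13, and 18 reads and 96, 38, and 22 reads (log2 fold change 1.79, adjusted p = 0.0731 in edgeR's test). *Klra8* had 1, 7, and 6 reads and 7, 3, and 11 reads, with overlapping groups. It had too few reads to be tested, and its counts do not show whether NK cells differed. These 2 and *Klrb1a* were named after their values were seen, and *Klrb1a* had a log2 fold change of -0.37 (adjusted p = 0.119), the lowest of those tested. Its AAV5-*V1+V2* libraries (2.74, 2.85, and 3.32 CPM) all lay below its AAV5-*Gfp* libraries (4, 3.87, and 3.62 CPM).

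Of 11 transcription factors tested, 7 were higher, among them *Prdm1* (log2 fold change 1.88), *Ikzf3* (2.95), and *Tcf7* (2.29). *Prdm1* and *Ikzf3* are also factors of plasma and B cells, and *Tcf7* of naive and memory T cells. Of 14 genes for the interleukins that feed cytotoxic cells, 10 were higher. The receptor chains *Il7r* (log2 fold change 2.56) and *Il2rg* (3.71) and the interleukin *Il21* (3.04) had the smallest adjusted p-values, 0.0139, 0.0144, and 0.0146 in edgeR's test. Whether their reads came from cytotoxic cells or from other cells was not tested.

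**Figure D5:**
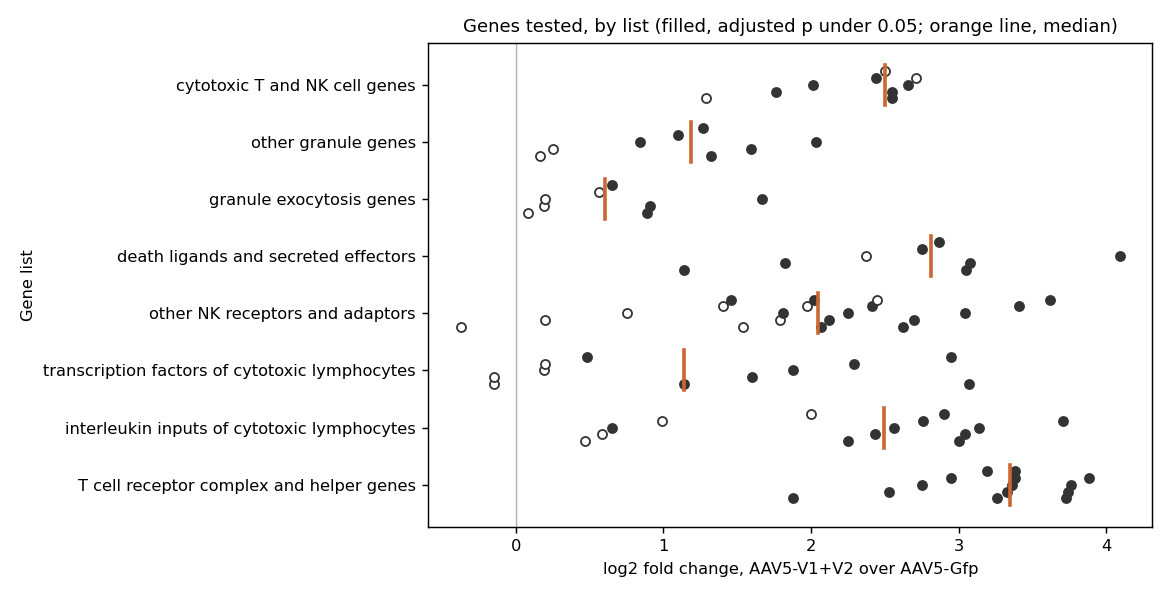
log2 fold change (horizontal axis) of each gene tested in the 8 lists named on the vertical axis, filled where the adjusted p was under 0.05, with the median of each list in orange. The medians of the 7 other lists run from 0.60 for granule exocytosis to 3.35 for the T cell receptor complex and helper genes.

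Markers of other cells moved with these genes. The counts that follow stand beside 10.1% of all genes tested that were higher. Without AAV5-*Gfp* replicate 2 or replicate 3, only 12 and 15 of all genes tested were higher, so these counts depend on those libraries as well. Of 6 B cell genes, 6 were higher, and the summed level was 10.9 to 17.8 CPM with AAV5-*Gfp* and 87.6 to 210 CPM with AAV5-*V1+V2* (*Ms4a1*, log2 fold change 5.49). Of 6 macrophage genes, 5 were higher (96.9 to 133 CPM and 190 to 347 CPM), and of 8 dendritic cell genes, 6 were higher (55.9 to 62.4 CPM and 87.2 to 129 CPM). *Xcr1*, the receptor of the dendritic cells that can carry CD8α, had a log2 fold change of 2.55. The dendritic cell genes ran from 0.15 to 3.14, with a median of 1.35. *Batf3* (1.44) and *Clec9a* (0.65), named after their values were seen, lay below *Xcr1*. Of 10 genes listed for gamma-delta T and innate lymphoid cells, 8 were matched and tested, and 2 were higher, *Blk*, which B cells share, and *Gata3*, which helper T cells share. The summed level of that list, most of it from *Rora* and *Zbtb16* (named after their values were seen), overlapped between groups (522 to 701 CPM and 476 to 567 CPM). Its gamma-delta receptor gene *Trdc* had 6, 8, and 4 reads with AAV5-*Gfp* and 19, 15, and 11 reads with AAV5-*V1+V2* (log2 fold change 1.28, adjusted p = 0.062), and the groups did not overlap. None of these lists had a defining marker at 0 in all libraries, and their part in the results was not tested.

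Mast cells also hold granule proteases, and of 7 mast cell genes none passed the test (93.4 to 106 CPM and 80.8 to 94.4 CPM). Of 6 erythrocyte genes none passed, with summed levels of 893 to 1070 CPM and 834 to 1250 CPM. The summed level of 10 sensory neuron genes was 4720 to 6930 CPM with AAV5-*V1+V2* and 7450 to 7950 CPM with AAV5-*Gfp*, without overlap. Of the 10, 1 was called lower, *Rbfox3*, where 5.27% of all genes tested were. Their log2 fold changes were all below 0, from -0.93 to -0.20, with a median of -0.41. *Scn9a* (-0.56, adjusted p = 0.0523) and *Scn10a* (-0.59, 0.0542) narrowly missed the threshold in edgeR's test. Of 5 satellite glia genes (2220 to 2550 CPM and 2190 to 2500 CPM) and of 6 Schwann cell genes (3490 to 4240 CPM and 3700 to 4100 CPM), none passed.

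The genes whose log2 CPM followed the mean of the 9 tested cytotoxic genes most closely over the 6 libraries were *Rfwd3* (r = 0.9974), *Il33* (0.9971), *Lat* (0.996), *Lrg1* (0.996), and *Themis* (0.9953). *Lat*, the adaptor downstream of the T cell receptor, had 33, 13, and 13 reads with AAV5-*Gfp* and 168, 89, and 91 with AAV5-*V1+V2*. *Themis*, a gene of T cell development, had 120, 46, and 44 reads and 895, 409, and 423 reads. *Rfwd3* differed far less between groups (log2 fold change 0.30). The 6 points fall into the 2 groups, and all genes were read from the same 6 libraries, so that r describes likeness only.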

How the data were processed

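RNA was sequenced from 3 AAV5-*Gfp* and 3 AAV5-*V1+V2* libraries made with a stranded total RNA kit. The deposited values are raw counts of reads for each gene symbol, in 1 table, and the submitters' processing notes name GRCm38 and mm10. The aligner, counter, annotation, and use of strand are not given in the sources used here. Totals per library ranged from 32025612 to 34764282 counts. Same-group libraries differed by 8.27 to 48.9 chi-square per degree of freedom, beyond sampling noise.

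The whole table was fitted by edgeR 4.0.16 under R 4.3.3 (filterByExpr, TMM, glmQLFit, glmQLFTest, group only), with Benjamini-Hochberg adjustment and a threshold of 0.05. The filter asked for 0.306 CPM in at least 3 libraries. Standard errors were the absolute log2 fold change divided by the square root of F. Ratios used a pseudocount of 0.5. Gene models came from GENCODE M21. The calculations were tested on simulated data. Alternatives were RLE, upper-quartile, and total-count scaling, no filter, DESeq2 1.42.0, limma-voom (limma 3.58.1), a replicate block, and leaving out each library. Leaving out both replicate 1 libraries, and the ratios to *Cd8a*, were added after the data were seen. The genes and lists were chosen with earlier results of these data known. By rule, the text names the 10 genes in full, at most 3 genes of each list by smallest adjusted p, *Cd3e*, *Cd4*, and *Tbx21*, and the 5 genes most alike. Others are said to have been named after their values were seen. The check of the *NIS-lncRNA* transcript itself is not reported here.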

Additional observations from a re-analysis of the deposited data

How the results depend on the processing

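The log2 fold changes of the 9 genes tested were above 0 in all 14 alternatives, while the calls varied. When libraries were left out singly, from 0 to 6 of the 10 genes were called, against 6 with all libraries, and from 0 to 53 of the related genes, against 46. No related gene was called lower in any fit. Over all genes these fits called from 12 to 2474 higher and from 0 to 1446 lower, against 1872 and 980. The counts higher and lower were 257 and 59 without AAV5-*Gfp* replicate 1, 12 and 0 without its replicate 2, 15 and 0 without its replicate 3, and 1020 and 150 without AAV5-*V1+V2* replicate 2, and the cause was not tested. DESeq2 called 1488 genes lower, and the cause was not tested. DESeq2 and the fit without a filter each called 9 of the 10 genes, *Gzmb* included, and limma-voom called 6, with *Cd8a* and *Eomes* in place of *Gzma* and *Klrd1*. Without both replicate 1 libraries, 7 were called, and *Gzma* (adjusted p = 0.0569) and *Gzmk* (0.0508) were not, by edgeR's test.

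The difference in the *Cd8a* to *Cd4* ratio ranged from -0.80 to 0.18 when single libraries were left out, and turned sign without AAV5-*Gfp* replicate 1 (0.18). The difference in the ratio to *Cd3* genes ranged from -0.95 to -0.62.

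Same-numbered libraries were correlated at 0.036, 0.066, and 0.107 in their deviations from the group means. Each library correlated best with its own number except AAV5-*V1+V2* replicate 1, which was at 0.043 with AAV5-*Gfp* replicate 2. The labels name no pairs, so the main fit had no block, and whether the numbers mark pairs was not settled. With the replicate block, 9 of the 10 genes, 51 related genes, and 2118 higher and 1341 lower genes were called. The block left the ratio differences at -0.34 (exact sign-flip p = 1) and -0.74 (exact p = 0.25, the smallest possible).

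Depth limits *Gzma*, *Gzmb*, and *Eomes*, each with 0 to 6 reads in the AAV5-*Gfp* libraries.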
